A study of Arabidopsis thaliana with 6 samples.

Results

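Transcripts that were lowered only in the octopus mutant formed a group of 76 probe sets of the 22746 on the array that are not controls. A probe set belonged to it when the higher of the 2 mutant arrays lay at least 1.0 log2 unit below the lowest of the 4 overexpressor and wild-type arrays, and when the overexpressor and wild-type means differed by less than 0.5. Plastid-encoded genes and a short list of genes were left out by name. These removed 0 and 6 of the 82 probe sets that met both conditions, which were 0.361% of all that are not controls. Both kinds were recognised through the annotation, so the 43 members without a single gene name could not be checked for them. The members were thus chosen by the levels of all 6 arrays and all 3 differences between groups, so that their differences are described here and not tested.

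The arrays came from whole Arabidopsis thaliana plants of 3 kinds, with 2 arrays each. The first was the octopus mutant, labelled DYG25. The second was a line labelled 35SDYG25 that overexpresses OCTOPUS, whose label names 35S, a promoter of viral origin that is active in most plant tissues. The third was the wild type, labelled WS, for which the labels name the Wassilewskija accession. All plants grew untreated on a medium called MS/2 at 20 °C and 70% hygrometry. Plant age, and the accession of the mutant and the overexpressor, are not stated. Each kind is represented by 1 line, so the allele or the transgene cannot be told apart from other differences that a line may carry. Whether the arrays of a group came from separate cultures is not stated, so p-values reflect just the spread among these samples, possibly a technical one.

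OCTOPUS (OPS) is a plasma membrane protein of the developing vascular tissue that promotes the entry of cells into phloem differentiation. It sits at one end of the cell and counteracts BIN2, a kinase that restrains brassinosteroid signalling. Mutants without it leave gaps in the strands of the early phloem, the tissue that carries sugar from leaves to growing organs. None of the 33 members with a gene name is in the phloem list used here, but only 3 of its 25 genes had a named probe set. The other 43 members could not be looked up in it, so the absence says little about phloem genes. In bulk samples of whole plants, fewer cells of a type and less RNA per cell cannot be told apart.

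Levels are the deposited log2 values, on which 1 unit is a doubling. The OPS transcript read 2.53 and 2.47 in the mutant, 9.52 and 9.83 in overexpressor plants and 2.66 and 2.47 in wild type. It was therefore at the lower end of the scale in wild type as well as in the mutant, and does not check the label of the mutant. On each array the 25th percentile was 2.54 to 2.70, and a fold that ends near it is limited by background. The root gene PYK10, a beta-glucosidase, read 12.3 and 12.5 in the mutant, 12.1 and 11.9 in overexpressor plants and 12.4 and 12.5 in wild type. RCA, the activase of the carbon-fixing enzyme Rubisco, read 13.8 and 13.9 in the mutant, 13.7 and 13.7 in overexpressor plants and 13.7 and 13.7 in wild type. Root and green tissue were thus both represented on every array. AT5G45880, of the pollen list, stayed between 2.12 and 2.16 on all 6 arrays. Of the stomatal lineage MUTE stayed between 2.26 and 2.33, SPCH between 3.44 and 3.88 and FMA between 3.89 and 4.57.

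The members' mean level ran from 2.25 to 11.1 in the mutant (median 6.56), from 4.16 to 12.4 in the overexpressor (median 8.12) and from 3.81 to 12.4 in wild type (median 8.03). The median over all tested probe sets in wild type was 6.39, and 39 members lay at 8 or more there. The mutant mean was under 3.5, close to the floor, for 9 members, among them AT1G19530, AT3G28310, CYP718, AT1G17665 and AT5G42200. Folds of these 9 are limited by background.

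The distance between the higher mutant array and the lowest of the other 4, called the gap here, had a median of 1.26 and reached 3.23. It was at least 2 for 7 members, between 1.5 and 2 for 15 and under 1.5 for 54. In each of the 76 the gap was larger than the largest difference between replicate arrays of any group. The ratio of gap to that difference ran from 1.05 to 34.7 with a median of 3.91. The rule asked for a gap of at least 1.0 on the same arrays, which favours probe sets with close replicates. These ratios therefore describe the members and are no test of their separation. Against wild type the mutant was lower by a median of 3.25-fold (range 2.1 to 12.5), and against the overexpressor by a median of 2.90-fold (range 2.11 to 13.4). Both sets of folds use the same mutant arrays. Between the overexpressor and wild type the members differed by -0.47 to 0.49, with 30 higher and 46 lower in the overexpressor.

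**Figure D1:**
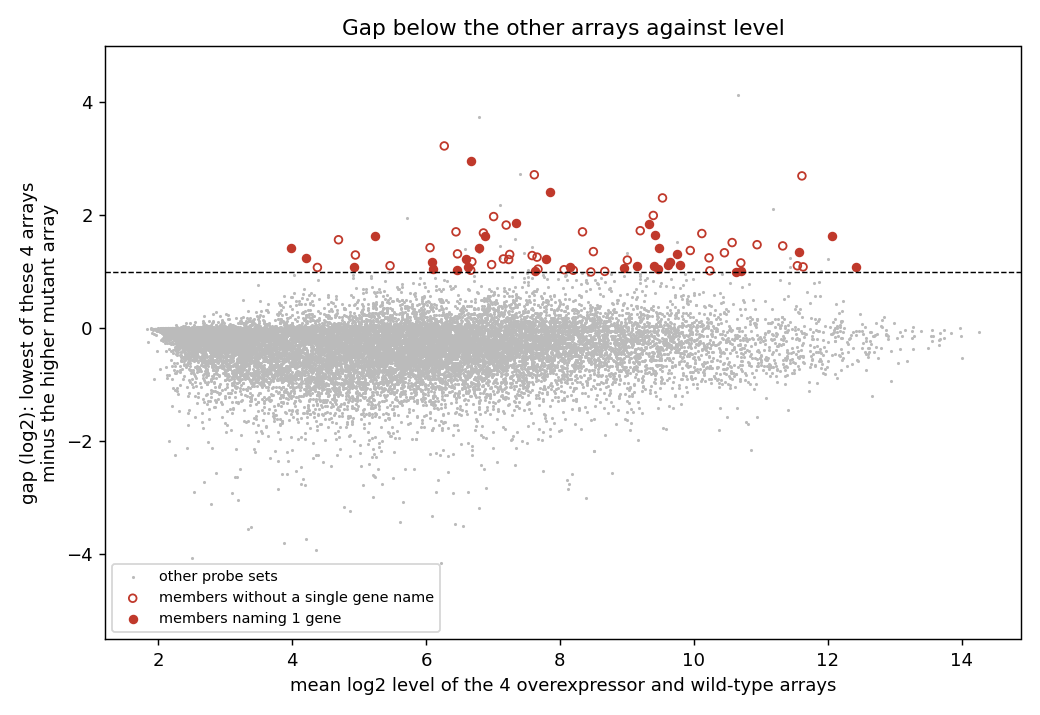
Each point is a probe set other than a control. The horizontal axis is the mean log2 level of the 4 overexpressor and wild-type arrays, and the vertical axis is the gap in log2 units, the lowest of these 4 arrays minus the higher mutant array; the dashed line marks the threshold of 1.0. Filled red points are the 33 members that name 1 gene, open red circles the other 43 members; grey points above the line were kept out by the limit on overexpressor minus wild type or belong to the genes left out.

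Replicate arrays of the members agreed to a median of 0.17 log2 units in the mutant, 0.15 in overexpressor plants and 0.26 in wild type. Over all tested probe sets the same medians were 0.14, 0.19 and 0.15. The members' wild-type arrays thus lay further apart than those of most probe sets, and their mutant arrays about as far. Neither wild-type array was the outlying one throughout, since array 1 was the higher in 45 members and array 2 in 30.

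In a fit across the 12363 probe sets that averaged 4 or more, 14.0% passed in the mutant against wild type (7.2% lower) and 18.4% in the mutant against the overexpressor (8.8% lower). The calls against wild type numbered 1736, but 167 without mutant array 1, 278 without mutant array 2, 683 without wild-type array 1 and 810 without wild-type array 2. The filter kept 72 of the 76 members, leaving out CYP718, AT1G17665 and 2 probe sets without a gene name. All 72 were among the lower calls of both comparisons, which their choice on these same differences strongly favoured, and nothing is read from that count. Standard errors of their differences ran from 0.09 to 0.36. None of the 72 passed between the overexpressor and wild type, where 2.53% of all tested probe sets did and the rule had set the members' difference below 0.5.

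Of the 76 members 33 name 1 gene and are described below by what their products do. Another 2 name several genes and 41 are not listed in the annotation table, so they carry no name here. The genes ranked by gap are shown in the plot of levels on each array.

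**Figure D2:**
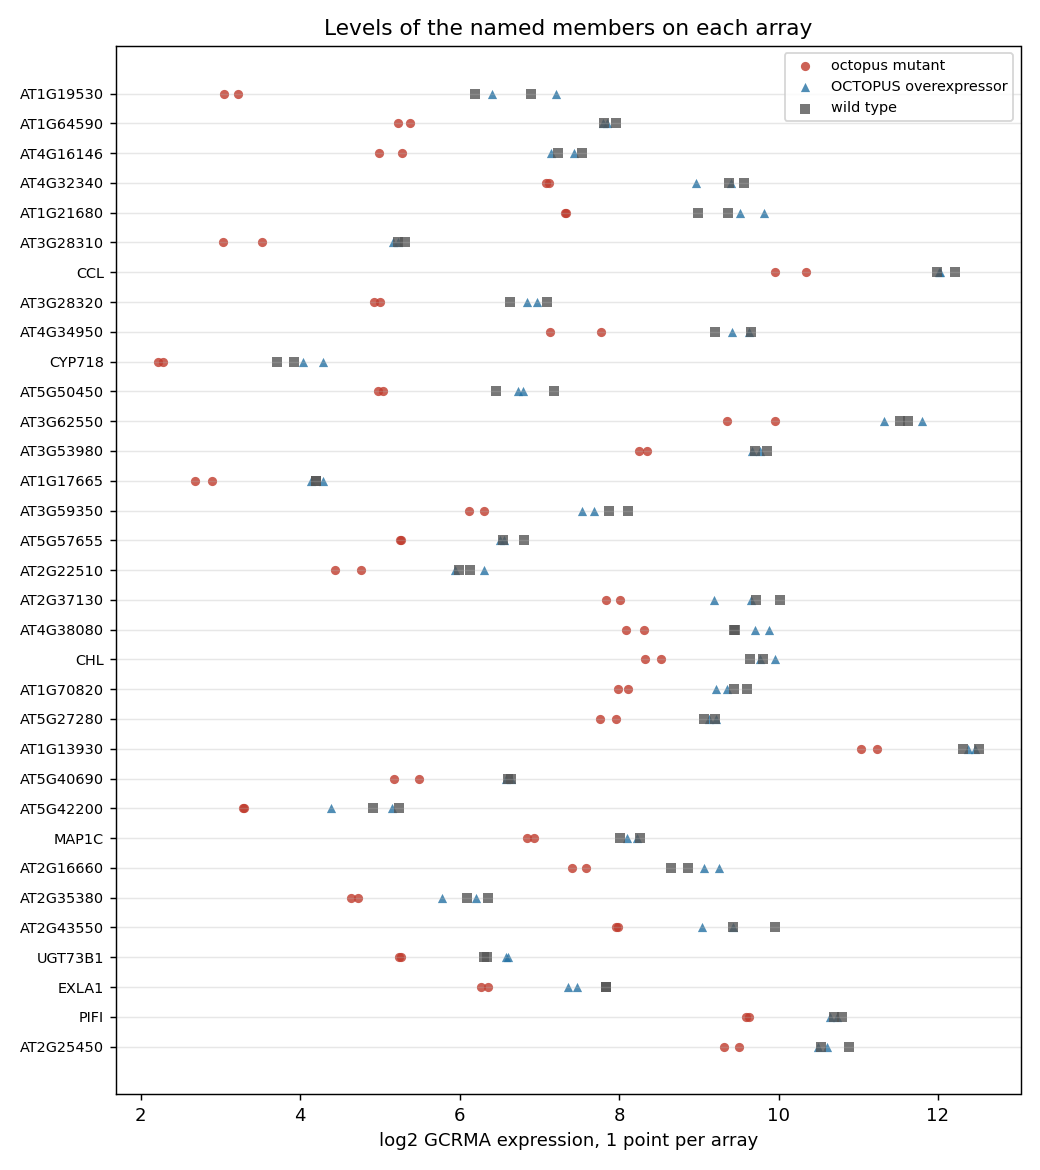
Log2 GCRMA expression of the 33 named members, 1 row per gene from the widest gap (top) to the narrowest, and 1 point per array: red circles for the octopus mutant, blue triangles for the OCTOPUS overexpressor and grey squares for wild type. In every row both mutant points lie at least 1.0 to the left of the other 4, among which overexpressor and wild-type points interleave or lie side by side.

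The widest gap among named members was that of AT1G19530, a gene of the core set that plants induce when oxygen is short. It read 3.22 and 3.04 in the mutant, against 7.21 and 6.41 in overexpressor plants and 6.19 and 6.90 in wild type. The mutant arrays were near the floor and the other 4 interleaved. The mutant lay 12.8-fold below the overexpressor and 10.7-fold below wild type, and the gap of 2.97 was 3.71 times the largest replicate difference. AT1G64590, of the short-chain dehydrogenases, which oxidise or reduce small molecules, followed with a gap of 2.42. It read 5.22 and 5.38 in the mutant, 7.85 and 7.80 in overexpressor plants and 7.96 and 7.81 in wild type. The 4 other arrays agreed within 0.16, and the mutant stood 5.76-fold below the overexpressor and 6.00-fold below wild type.

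Next came genes whose products are known mainly by their domains. AT4G16146, related to the small phosphoproteins that inhibit a protein phosphatase in animals and yeast, read 4.99 and 5.28 in the mutant, 7.43 and 7.15 in overexpressor plants and 7.54 and 7.23 in wild type. The mutant was 4.45-fold below the overexpressor and 4.76-fold below wild type. AT4G32340, a protein of tetratricopeptide repeats, which bind other proteins, read 7.12 and 7.08 in the mutant, 9.40 and 8.96 in overexpressor plants and 9.57 and 9.38 in wild type. Its folds were 4.23 against the overexpressor and 5.19 against wild type. AT1G21680, predicted to fold into a beta-propeller like the N-terminal part of an animal peptidase-related protein, read 7.32 and 7.33 in the mutant, 9.52 and 9.82 in overexpressor plants and 9.36 and 8.99 in wild type. Of the named members it came closest to the limit on the other side of the rule, with the overexpressor 0.49 above wild type.

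Among regulators and genes under daily control, CCL (CCR-like) comes first. Its transcript is under circadian control, partly through the timing of its decay. It read 10.4 and 9.95 in the mutant, 12.0 and 12.0 in overexpressor plants and 12.2 and 12.0 in wild type. The mutant was 3.64-fold below the overexpressor and 3.86-fold below wild type. AT5G50450, with a zinc finger of the MYND type, read 5.04 and 4.97 in the mutant, 6.73 and 6.79 in overexpressor plants and 6.46 and 7.18 in wild type. AT3G62550, of the universal stress protein family, read 9.96 and 9.35 in the mutant, 11.3 and 11.8 in overexpressor plants and 11.5 and 11.6 in wild type. Its folds were 3.75 against the overexpressor and 3.78 against wild type, with the mutant arrays 0.61 apart.

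AT3G59350, a protein kinase gene related to Pti1 of tomato, read 6.12 and 6.30 in the mutant, 7.68 and 7.53 in overexpressor plants and 7.87 and 8.11 in wild type. The mutant was 2.63-fold below the overexpressor and 3.43-fold below wild type, with both overexpressor arrays between the other groups. AT5G42200, with a RING finger as in many ubiquitin ligases, read 3.29 and 3.28 in the mutant, 4.38 and 5.15 in overexpressor plants and 4.91 and 5.24 in wild type. Its overexpressor arrays were 0.77 apart, and its gap was 1.42 times that difference, the lowest such ratio of the named members.

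The neighbouring loci AT3G28310 and AT3G28320 were both members. They encode proteins of 1 plant family (DUF677) whose role is not established, and they were the only members next to each other among the 33. AT3G28310 read 3.52 and 3.03 in the mutant, 5.16 and 5.23 in overexpressor plants and 5.23 and 5.32 in wild type. AT3G28320 read 5.00 and 4.92 in the mutant, 6.97 and 6.84 in overexpressor plants and 6.63 and 7.09 in wild type. The mutant was thus 3.78-fold and 3.85-fold below the overexpressor and 4.0-fold and 3.73-fold below wild type. Genes of one family can share probes, which was not tested here, so that these may not be separate measurements.

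Several members act in the chloroplast, where light energy is captured. CHL, the chloroplast lipocalin, which protects the thylakoid membranes under stress, read 8.32 and 8.52 in the mutant, 9.95 and 9.77 in overexpressor plants and 9.80 and 9.64 in wild type. The mutant was 2.71-fold below the overexpressor and 2.46-fold below wild type. PIFI, needed for the rise of chlorophyll fluorescence after light is switched off, read 9.59 and 9.63 in the mutant, 10.7 and 10.6 in overexpressor plants and 10.8 and 10.7 in wild type. Its replicates agreed within 0.10, and its folds of 2.11 and 2.19 were among the smallest. Of the 7 tested genes of the nuclear photosynthesis list none was a member. None of the 7 passed as lower in the mutant against wild type and 2 passed as higher, LHCB4.2 and PSBY, where 6.84% of all tested probe sets were higher. Neither passed without mutant array 1, without mutant array 2 or without the filter on low values, and 1 passed without either wild-type array or with the replicate block.

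AT5G27280, with a zinc finger of the Zim17 type found in helpers of organellar chaperones, read 7.96 and 7.76 in the mutant, 9.21 and 9.13 in overexpressor plants and 9.07 and 9.20 in wild type. MAP1C, a methionine aminopeptidase, of the enzymes that remove the first methionine of new proteins, read 6.84 and 6.93 in the mutant, 8.10 and 8.22 in overexpressor plants and 8.26 and 8.01 in wild type. AT5G27280 was 2.48-fold lower in the mutant than in the overexpressor and 2.42-fold lower than in wild type, and MAP1C was 2.42-fold and 2.38-fold lower. AT1G70820, of the phosphoglucomutase family, which shifts phosphate between positions of a sugar, read 7.99 and 8.11 in the mutant, 9.35 and 9.22 in overexpressor plants and 9.44 and 9.60 in wild type.

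A further set encodes secreted and cell wall proteins. AT2G22510 and AT4G38080 are genes of hydroxyproline-rich glycoproteins, a class of cell wall proteins. AT2G22510 read 4.43 and 4.76 in the mutant, 6.31 and 5.94 in overexpressor plants and 6.13 and 5.99 in wild type. AT4G38080 read 8.31 and 8.09 in the mutant, 9.88 and 9.71 in overexpressor plants and 9.45 and 9.44 in wild type. EXLA1, an expansin-like protein, related to proteins that loosen the cell wall, read 6.35 and 6.27 in the mutant, 7.47 and 7.36 in overexpressor plants and 7.83 and 7.84 in wild type. Its overexpressor arrays lay below both wild-type arrays, so the mutant was 2.15-fold below the overexpressor and 2.88-fold below wild type. EXLA3, the annotated neighbour of EXLA1 and of the same family, differed by 0.04 between mutant and wild type and was too low to be tested.

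Both peroxidase genes of the group are of the secreted kind that oxidises wall phenolics and other substrates. AT2G37130 read 8.01 and 7.84 in the mutant, 9.66 and 9.19 in overexpressor plants and 9.72 and 10.02 in wild type. AT2G35380 read 4.73 and 4.64 in the mutant, 6.20 and 5.78 in overexpressor plants and 6.36 and 6.09 in wild type. In both the overexpressor mean was below that of wild type, by 0.45 and 0.24. AT3G53980, of the lipid transfer and bifunctional inhibitor family of small secreted proteins, read 8.35 and 8.25 in the mutant, 9.77 and 9.67 in overexpressor plants and 9.85 and 9.71 in wild type, so that the groups were tight. AT2G43550, a small cysteine-rich protein of the defensin-like kind, read 7.96 and 7.99 in the mutant, 9.43 and 9.04 in overexpressor plants and 9.95 and 9.43 in wild type. Its overexpressor mean was 0.46 below wild type, the lowest such difference among named members.

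AT5G57655 encodes xylose isomerase, which interconverts xylose and xylulose, and read 5.25 and 5.27 in the mutant, 6.55 and 6.50 in overexpressor plants and 6.54 and 6.81 in wild type. AT4G34950 and AT2G16660 are nodulin-like transporters of the major facilitator superfamily, whose members carry small molecules across membranes. AT4G34950 read 7.13 and 7.77 in the mutant, 9.63 and 9.42 in overexpressor plants and 9.65 and 9.20 in wild type. AT2G16660 read 7.41 and 7.58 in the mutant, 9.06 and 9.25 in overexpressor plants and 8.87 and 8.65 in wild type. In AT4G34950 the mutant was 4.21-fold below the overexpressor and 3.93-fold below wild type, and in AT2G16660 it was 3.16-fold below the overexpressor and 2.40-fold below wild type.

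Enzymes of specialised metabolism made up another 3. CYP718, a cytochrome P450, of the enzymes that add oxygen to small molecules, read 2.21 and 2.28 in the mutant, 4.29 and 4.03 in overexpressor plants and 3.92 and 3.71 in wild type. It was low everywhere and at the floor in the mutant. UGT73B1, which attaches glucose to small molecules, read 5.27 and 5.24 in the mutant, 6.6 and 6.58 in overexpressor plants and 6.31 and 6.34 in wild type. Its replicates differed by at most 0.03, against a gap of 1.04. AT2G25450, known as GSL-OH, hydroxylates the side chain of a methionine-derived glucosinolate, and read 9.32 and 9.50 in the mutant, 10.6 and 10.5 in overexpressor plants and 10.9 and 10.5 in wild type. Of the 2 tested genes of the glucosinolate list, BCAT4, of the chain elongation of methionine, rose by 0.90 log2 units in the mutant against wild type (SE 0.19, limma adjusted p = 0.0258) and AT2G31790 differed by 0.45 (adjusted p = 0.0889). The call of BCAT4 was lost without any 1 of the mutant or wild-type arrays.

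For the last 3 named members less is known. AT1G13930, linked to salt tolerance, read 11.0 and 11.2 in the mutant, 12.5 and 12.4 in overexpressor plants and 12.5 and 12.3 in wild type. AT1G17665 read 2.68 and 2.89 in the mutant, 4.14 and 4.29 in overexpressor plants and 4.2 and 4.2 in wild type. AT5G40690 read 5.17 and 5.49 in the mutant, 6.65 and 6.58 in overexpressor plants and 6.61 and 6.64 in wild type. In AT1G13930 and AT5G40690 the overexpressor and wild-type means differed by at most 0.01.

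The 43 members without a single gene name had gaps of 1.0 to 3.23 with a median of 1.31, against 1.18 for the 33 named ones. The widest of all belonged to the probe set 249850_at, at 2.82 and 2.66 in the mutant, 6.23 and 6.10 in overexpressor plants and 6.71 and 6.05 in wild type. The next unnamed one, 257985_at, read 4.32 and 4.08 in the mutant, 7.36 and 7.91 in overexpressor plants and 8.16 and 7.04 in wild type. The first was 10.7-fold and the second 10.8-fold lower in the mutant than in the overexpressor, and 12.5-fold and 10.6-fold lower than in wild type.

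At the threshold itself, the named members with the smallest gaps were AT2G25450 at 1.0 and EXLA1 and PIFI at 1.01. Just outside, among probe sets with a gene name, stood AT2G18370, of the lipid transfer family, at 0.98, with 7.26 and 7.03 in the mutant, 8.34 and 8.50 in overexpressor plants and 8.24 and 8.26 in wild type. AT1G26665, a Mediator subunit gene, had a gap of 0.95 and AT1G69890 one of 0.94. A further 19 probe sets had a gap of at least 1.0 but a difference of 0.5 or more between overexpressor and wild type, 11 of them lower and 8 higher in the overexpressor.

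The same rule turned to the other groups shows how the 3 kinds of plants stood apart. It found 76 probe sets lower and 56 (0.246%) higher in the mutant only. In the overexpressor only, 5 (0.022%) were lower and 121 (0.532%) higher, and in wild type only, 2 (0.00879%) were lower and 8 (0.0352%) higher. Probe sets with a gap of at least 2 numbered 7 among those lower in the mutant, 8 among those higher in the mutant and 43 among those higher in the overexpressor. Leaving out genes by name lowered only the counts of those lower in the mutant, which were 82 (0.361%) before. It took out COR27, AT4G33980 and THIC, with gaps of 3.74, 2.19 and 2.12, so the 7 and the 8 are not counted alike. All counts are of 1 set of arrays, and the differences between them were not tested.

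**Figure D3:**
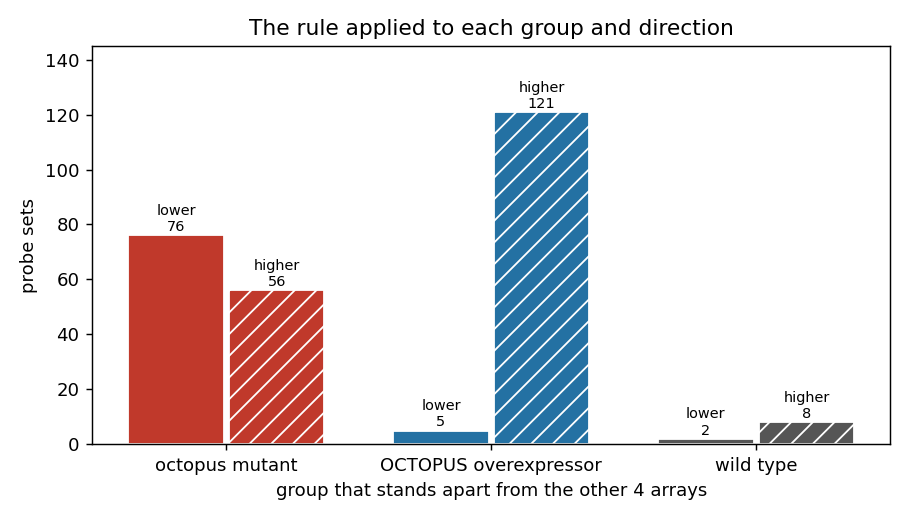
Number of probe sets (vertical axis, from 0) that stand apart from the other 4 arrays by a gap of at least 1.0 while the other groups' means differ by less than 0.5, for each group and direction, after leaving out plastid-encoded and the listed genes. In the mutant 76 were lower and 56 higher, and in the overexpressor 5 were lower and 121 higher. Leaving out genes changed only the first of these counts, from 82.

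The flanking protein-coding genes of the 33 named members were looked up in the order of the annotation. Of these, 16 were tested and not members themselves, and their median difference between mutant and wild type was -0.18, against -0.01 over all tested probe sets. Among them 2 were lower in the mutant, 1 was higher and 13 did not pass, where 7.2% of tested probe sets were lower and 6.84% higher. One of the lower was AT1G21670, next to AT1G21680 and of the same beta-propeller family. It read 7.04 and 6.80 in the mutant, 8.54 and 8.60 in overexpressor plants and 7.89 and 7.94 in wild type, a fall of 0.99 log2 units against wild type (SE 0.12, limma adjusted p = 0.00495). Its overexpressor mean exceeded that of wild type by 0.66. The other was AT5G27290, next to AT5G27280, at 7.08 and 7.20 in the mutant, 7.80 and 7.87 in overexpressor plants and 8.02 and 7.96 in wild type (a fall of 0.85, SE 0.11, adjusted p = 0.00599). That of AT5G27290 was lost without mutant array 1 (adjusted p = 0.0672). The higher neighbour, AT1G13940, rose by 0.56 (adjusted p = 0.0489), a call that was lost without any 1 of the mutant or wild-type arrays.

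Pathway lists could be followed only in part, since 79 of their 456 genes had a probe set with a single gene name and 51 probe sets were tested besides the members and the genes left out. Of these 51, 2 were lower and 5 higher in the mutant against wild type, where 7.2% and 6.84% of all tested probe sets were. In the mutant against the overexpressor 9 were lower and 8 higher, where 8.8% and 9.55% of all tested probe sets were. The 9 include OPS, the overexpressed gene itself. The count against wild type was 0 without mutant array 1, 2 without mutant array 2, 4 without wild-type array 1 and 3 without wild-type array 2. Against the overexpressor, leaving out mutant array 1 gave 3 lower and 1 higher, and leaving out mutant array 2 gave 3 lower and 0 higher. Dropping overexpressor array 2 gave 3 lower and 3 higher, and dropping overexpressor array 1 or either wild-type array gave 4 lower and 7 higher.

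AT1G19530 was the only member in the lists, in that of the hypoxia response, whose genes let cells ferment when oxygen is short. Of the 5 other tested genes of that list 1 was lower in the mutant against wild type and none was higher. Of all tested probe sets 7.2% were lower and 6.84% higher. The median difference of the 5 was -1.07, against -0.01 over all tested probe sets. PDC2, a pyruvate decarboxylase of ethanol fermentation, read 5.94 and 6.44 in the mutant, 7.87 and 7.10 in overexpressor plants and 7.85 and 7.63 in wild type. It fell by 1.55 against wild type (SE 0.28, limma adjusted p = 0.0150). That call was lost without mutant array 1 (adjusted p = 0.117), mutant array 2 (0.0626), wild-type array 1 (0.0826) or wild-type array 2 (0.0558).

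Other genes of the list are induced by low oxygen but have no settled role. AT3G10020 read 8.29 and 7.39 in the mutant, 9.32 and 9.79 in overexpressor plants and 8.77 and 9.17 in wild type (difference from wild type -1.13, adjusted p = 0.0534). AT4G27450 read 7.86 and 5.93 in the mutant, 7.72 and 9.003 in overexpressor plants and 7.56 and 8.38 in wild type (-1.07, adjusted p = 0.326). The mutant arrays of both were far apart. AT1G19530 offers no comparison in this, since its mutant arrays were near the floor and the rule had chosen it. AT4G10270, a wound-induced gene, differed by -0.69 (adjusted p = 0.427). CML38, a calmodulin-like gene, differed by -0.19 (adjusted p = 0.495). Of all tested probe sets 8.8% passed as lower in the mutant than in the overexpressor. Against the overexpressor PDC2 and AT3G10020 passed as lower, at -1.29 and -1.71, but none of the 5 did without mutant array 2, and 1 did without mutant array 1 or either overexpressor array.

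The breakdown of branched-chain amino acids, which feeds respiration when sugar is scarce, had 8 tested genes. None of them passed in the mutant against wild type at an adjusted p below 0.05, and their median difference was -0.36. Against the overexpressor 4 of the 8 passed as lower and none as higher, where 8.8% and 9.55% of all tested probe sets did. IVD, isovaleryl-CoA dehydrogenase, was 1 of the 4, at 5.33 and 4.84 in the mutant and 5.78 and 5.95 in the overexpressor. The others were MCCB, ETFQO and D2HGDH. No such call remained without mutant array 1, mutant array 2, overexpressor array 2, wild-type array 1 or wild-type array 2, and 1 remained without overexpressor array 1. None remained with the replicate block, and 1 without the filter. AT3G15450 of the dark and sugar starvation list read 10.6 and 8.71 in the mutant, 10.9 and 11.7 in overexpressor plants and 9.71 and 11.3 in wild type, so that its groups overlapped.

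Clock genes with a name were GI, a clock component of the evening, and AT5G52660, a clock transcription factor gene of the RVE family. GI read 6.57 and 6.63 in the mutant, 7.22 and 6.84 in overexpressor plants and 6.77 and 7.02 in wild type. The mutant arrays were the lowest, but the difference of -0.29 from wild type did not pass (SE 0.17, adjusted p = 0.286). AT5G52660 differed by -0.24 (adjusted p = 0.372). Of the starch breakdown and thiamine lists the named genes PWD, DPE1 and THIC met the rule and were left out by name.

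Of the phloem list only SWEET11, which exports sucrose towards the phloem, averaged at least 4 in every group. It read 9.67 and 9.95 in the mutant, 10.2 and 10.4 in overexpressor plants and 10.5 and 10.6 in wild type, with a gap of 0.27, too small for the rule. It fell by 0.78 against wild type (SE 0.12, limma adjusted p = 0.0102), a call lost without mutant array 1 (0.0851) or wild-type array 2 (0.0534). In the lists of procambium and xylem, brassinosteroid, auxin response and cold and abscisic acid no gene was a member. Of their 4, 3, 3 and 1 tested genes besides those left out by name, none was lower in the mutant against wild type, and 1 each of the brassinosteroid and auxin lists was higher, where 6.84% of all tested probe sets were. These were EXPA8, an expansin, whose call was lost without mutant array 1 (adjusted p = 0.106), mutant array 2 (0.114) or the filter (0.0514), and GH3.3, an auxin-conjugating enzyme, whose call was lost without mutant array 1 (0.0593) or mutant array 2 (0.0564). The procambium and xylem list had 1 lower gene without mutant array 2, and the brassinosteroid list 1 without either overexpressor array. COR15B, the 1 tested cold and abscisic acid gene, read 3.68 and 4.51 in the mutant and 5.77 and 4.94 in wild type. Its difference of -1.26 from wild type did not pass (limma adjusted p = 0.0595), and overexpressor plants were as low, at 3.89 and 4.19. COR47 and LTI30 of the same list, left out by name, differed from wild type by -1.255 and -1.135. The tested root markers PYK10, EXPA7 and EXPA18 differed by -0.04, -0.42 and -0.19, and none of the 3 passed.

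**Figure D4:**
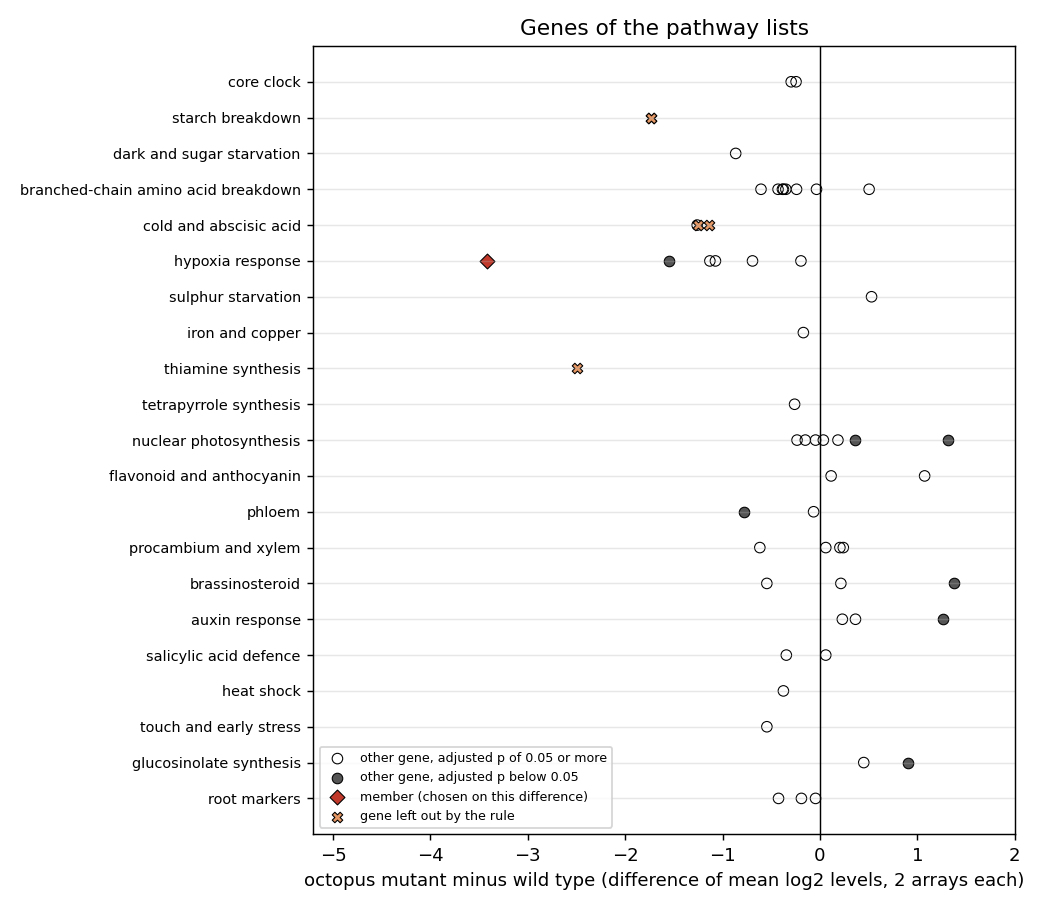
Difference of mean log2 level between the octopus mutant and wild type (horizontal axis, 2 arrays each) for each tested gene of the pathway lists and the root markers (rows). Filled grey circles passed at an adjusted p below 0.05 and open circles did not; the red diamond is the member AT1G19530 at -3.42, and crosses are genes left out by name. Outside these, PDC2 at -1.55 and SWEET11 at -0.78 are the 2 filled circles left of 0.

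Control probe sets differed between arrays, some of them with the mutant. All 24 Bacillus control sets were higher on wild-type array 2 than on wild-type array 1, by 2.22 to 3.31 log2 units. The probe set of the 25S ribosomal RNA read 8.03 and 11.2 in the mutant, 6.28 and 6.61 in overexpressor plants and 6.42 and 5.86 in wild type. The 3' minus 5' difference of 1 GAPDH pair was 1.8 and 1.39 on the log2 scale in the mutant. It was 1.92 and 1.72 in overexpressor plants and 1.42 and 1.12 in wild type, so there the mutant arrays overlapped both other groups. In the other actin, GAPDH and ubiquitin pairs both mutant arrays had a larger difference than both wild-type arrays. In 1 actin pair the 5' probe set read 10.13 and 10.48 in the mutant and 10.77 and 10.87 in wild type. Overexpressor plants read 10.15 and 10.17 there. Its 3' probe set read 11.71 and 11.84 in the mutant, against 11.81 and 11.8 in wild type. The part of these in the members' levels was not tested.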

How the data were processed

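Each probe set of the Affymetrix ATH1 array has 1 deposited log2 value per array. The submitters' processing notes name GCRMA as the tool used by the authors for these log2 values. Its version, and which arrays were normalised together, were not stated. That the scale is log2 follows from the range of values (1.82 to 14.3). Values with more than 2 decimals occur in 2333 probe sets, 3 of them members, unlike the rest. These members are 266225_at, 259008_at and 247525_at, whose mutant arrays differed by 0.002, 0.0005 and 0.001. AT3G15450, AT4G27450, the Bacillus control sets and the control probe sets flagged below are also of this kind. Whether such values were processed in another way was not tested.

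Members were found by the stated rule on these values without a filter. The members, lists and tests were chosen with earlier results of these data known. The naming rule took the 24 named members with the widest gap, those in lists or shared families, the 3 on each side of the threshold and up to 4 genes per list with the smallest p; the remaining named members were added so that all 33 are given, and flanking genes, tissue markers and EXLA3 were named after their values were seen. Names come from the platform annotation, in which 13513 probe sets name 1 gene, 503 several and 8794 none listed; 13436 were matched to TAIR10.1 and 77 kept the table's name.

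limma 3.58.1 in R 4.3.3 (lmFit, eBayes with trend, two-sided) was fitted to all 6 arrays without covariates, with 3 residual degrees of freedom, after leaving out 64 control probe sets and those with a mean under 4. Benjamini-Hochberg adjusted p below 0.05 counted as passing. It was also run on simulated data with independent noise on each array. That run does not test how the fit behaves on the real arrays. Alternatives were another normalisation, filters, thresholds, a fit of the 4 arrays compared, the replicate number as a block and leaving out each array. A planned count of promoter motifs was not made. The number of arrays limits the precision.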

Additional observations from a re-analysis of the deposited data

Results flagged for a closer look

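Signal in 2 control probe sets, which lie outside the fits and the rule, was at least 1 log2 unit higher on both mutant arrays than on both wild-type arrays. The 25S ribosomal RNA probe set was higher in the mutant by 3.47 log2 units, at 8.03 and 11.2 in the mutant against 6.42 and 5.86 in wild type. The control probe set AFFX-r2-At-U12639_at, whose target the labels do not name, read 4.81 and 4.84 in the mutant, 1.97 and 2.00 in overexpressor plants and 1.97 and 1.97 in wild type, so that the mutant stood 2.86 above wild type. Its mutant arrays agreed within 0.03 and the other 4 arrays were at the floor. No control probe set had both mutant arrays at least 1 log2 unit below the lowest of the other 4.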

How the results depend on the processing

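With a gap of 1.5 the rule kept 22 members, with medians of -2.25 (mutant minus wild type) and -2.15 (mutant minus overexpressor), and with a limit of 0.25 on overexpressor minus wild type it kept 45; stricter thresholds keep fewer by construction. Leaving out 1 array gave 77 to 115 members, the most without overexpressor array 2. Medians were -1.63 to -1.54 against wild type and -1.53 to -1.48 against the overexpressor. Of the 76, 76 were kept without either mutant array, which holds by construction. Dropping a mutant array cannot narrow the gap and leaves overexpressor minus wild type unchanged. Without overexpressor array 1 or 2, 69 and 73 were kept, and without wild-type array 1 or 2, 68 and 65. Dropping such an array cannot narrow the gap either, so these losses come only from the limit on overexpressor minus wild type. The numbers kept are therefore no test of the gap. Recomputed differences of the 33 named members stayed between -3.77 and -1.06, and the rule itself fixes their sign. Probe sets passing in the mutant against wild type numbered 1009 without a filter and 167 to 1807 without 1 array; against the overexpressor they numbered 363 to 1931 without 1 array. Between overexpressor and wild type they numbered 191 at a mean of at least 6, 75 in a fit of the 4 arrays and 57 to 373 without 1 array. Where an arm kept 1 array, that array was assumed to vary like the other groups. List genes that passed numbered 0 to 8 without 1 array. The cause of these changes was not tested.

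Replicate numbers did not pair the samples: deviations correlated at -0.31 (mutant and overexpressor), -0.24 (mutant and wild type) and 0.16 (overexpressor and wild type). With the replicate block 1166, 1579 and 118 probe sets passed in the mutant against wild type, the mutant against the overexpressor and the overexpressor against wild type. The planned motif count in promoters was not run. Values near the floor limit the folds of 9 members.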
